A study of Saccharomyces cerevisiae S288C with 32 samples.

Results

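The Ccr4-Not complex of budding yeast is built from the products of 9 genes, CCR4, POP2, CDC39, CDC36, MOT2, NOT3, NOT5, CAF40 and CAF130. All 9 were taken by name, whatever their values, and all 9 were found among the 6084 records of the deposited count table that could be tied to a RefSeq gene of the R64 build. Their transcripts were followed in wild type and in 2 mutants, not5 and zuo1, with and without a proline analog. NOT5 is itself the gene affected in the not5 cells, so 8 genes remain for comparisons of not5 with wild type.

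Ccr4-Not shortens the poly(A) tails of mRNAs, a step that opens the way to decapping and decay, and it also takes part in transcription and in quality control of translation. CCR4 and POP2 encode its deadenylases, CDC39 (also called NOT1) encodes the scaffold on which the other subunits assemble, and MOT2 (NOT4) encodes a RING-type ubiquitin ligase. CDC36 (NOT2), NOT3 and NOT5 encode the subunits of the NOT module, and the NOT5 product can sense slowly decoding ribosomes by binding an empty site on them. CAF40 encodes a subunit that docks RNA-binding proteins and peptides, and CAF130 encodes a large subunit found in yeasts.

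RNA was sequenced from 32 libraries of S288C, the reference laboratory strain of Saccharomyces cerevisiae, grown in YPD at room temperature. Cultures received azetidine-2-carboxylic acid, or AZC, which resembles proline and enters proteins where proline belongs, at 2 mg/mL or the same volume of sterile water (vehicle), and were collected after 45 minutes. Flowcell 1 carried wild type with vehicle, wild type with AZC, zuo1 with vehicle and zuo1 with AZC. Flowcell 2 carried wild type with vehicle, wild type with AZC, not5 with vehicle and not5 with AZC. Each of these 8 groups had 4 libraries, labelled biological replicates with nothing said about separate cultures or clones, and p-values therefore rest on the spread among those 4. The labels name the alleles only as zuo1 and not5. ZUO1 encodes a J-domain co-chaperone that sits on ribosomes and works with the Ssb class of Hsp70 on new polypeptide chains.

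The libraries held 22152108 to 31485394 counts on flowcell 1 and 58229383 to 97010130 on flowcell 2. ZUO1 had 0 counts in all zuo1 libraries but AZC replicate 1, which had 3, and its level in vehicle was at least 38312-fold lower than in wild type against a floor of 3 counts over the group. NOT5 had 0 counts in all 8 not5 libraries. LEU2, a leucine synthesis gene, had 1378 to 2311 counts in the not5 libraries and 0 in the other 24, so the not5 cells differed from their wild type in more than NOT5, and effects of NOT5 and of that difference cannot be told apart. Ribosomal RNA records took 3.95% to 14.9% of the counts in not5 libraries, 0.626% to 3.95% in wild type of flowcell 2 and 0.59% to 2.56% on flowcell 1. Oligo-dT beads selected the RNA, so tail length and transcript level cannot be told apart, and neither can less RNA per cell and fewer cells, since values are shares of a library.

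In wild type with vehicle the 9 transcripts differed widely in abundance. Levels are given in CPM, counts scaled to a common library size with TMM factors, and between genes as CPM per kilobase of coding length. On flowcell 1 the level per kilobase ran from 22.1 ± 1.48 for CAF130 to 127 ± 8.13 for NOT5 (SD, n = 4), a 5.75-fold span. Among 5785 protein-coding genes ranked per kilobase, CAF130 stood at percentile 27.9, CDC39 at 48.1 and CCR4 at 51.0, while POP2 stood at 74.6 and NOT5 at 80.4. CAF130 was the lowest and NOT5 the highest of the 9 in all 6 groups that carry NOT5. In the not5 cells with vehicle the lowest was CCR4, at 18.2 ± 1.23 CPM per kilobase, and the highest was POP2, at 128 ± 5.17.

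**Figure D1:**
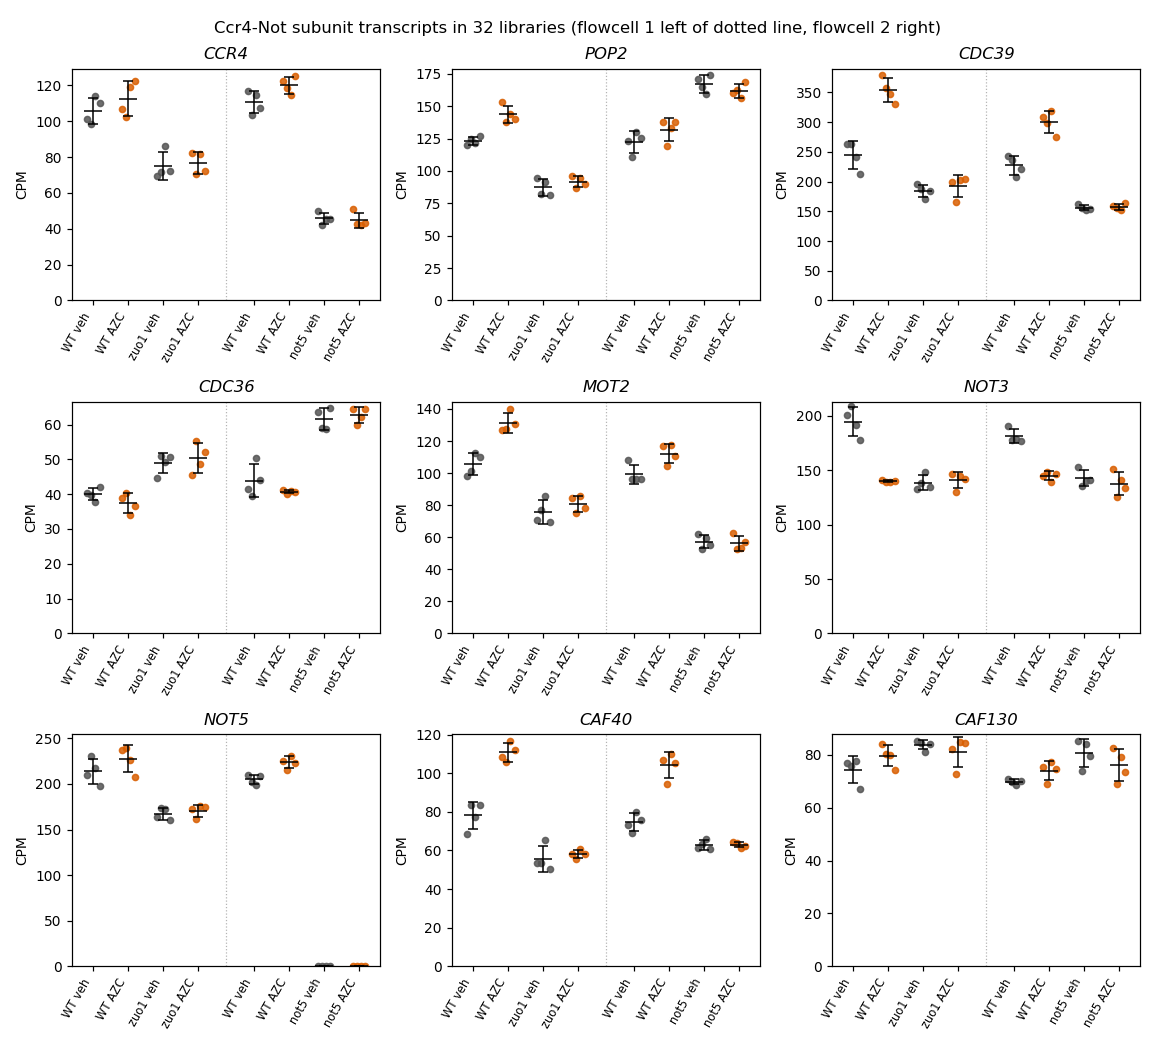
Level of each Ccr4-Not transcript in all 32 libraries, in CPM after TMM scaling on a linear axis from 0, with 1 panel per gene and 1 column per group. Points are libraries and bars are means with SD (n = 4). NOT5 is at 0 in the not5 columns, CCR4 falls to about 45.8 CPM there, and NOT3 is highest in the 2 groups of wild type with vehicle.

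The comparison of AZC with vehicle in wild type asks what 45 minutes of the analog do to these transcripts. On flowcell 1, 5 of the 9 genes were called (edgeR quasi-likelihood test with Benjamini-Hochberg adjustment, adjusted p under 0.05), against a background of 64.6% of 5782 genes tested. CDC39, CAF40, MOT2 and POP2 rose, by 1.15- to 1.43-fold, and NOT3 fell. On flowcell 2, 3 of the 9 were called against 65.3% of 5849 genes, with CDC39 and CAF40 higher and NOT3 lower. The share called among the members is thus no higher than that of all genes. On flowcell 1, libraries with and without AZC did not overlap for 5 of the 9 genes, beside 58.3% of all genes. On flowcell 2 this held for 4 of 9, beside 61.8%. The median log2 change of the 9 was 0.08 on both flowcells, beside 0.02 over all genes on flowcell 1 and -0.03 on flowcell 2.

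The deadenylase transcripts moved little. Coordinates are of coding sequences in the R64 build. CCR4 (YAL021C, chrI:110846-113359, minus strand) was at 101, 98.3, 114 and 109.9 CPM with vehicle and 107, 102, 119 and 122 with AZC on flowcell 1. The ranges overlap, and the log2 difference was 0.07 ± 0.08 (SE), with a 95% interval of -0.10 to 0.25. On flowcell 2 it was 0.08 ± 0.07. POP2 (YNR052C, chrXIV:719346-720647, minus strand) was at 120.2, 124, 122 and 127 CPM with vehicle and 153, 138, 144 and 139.7 with AZC on flowcell 1. All 4 AZC libraries lay above all 4 vehicle libraries, and the rise was 1.15-fold (log2 0.20 ± 0.06, edgeR adjusted p = 0.00748). On flowcell 2 POP2 was not called (log2 0.07 ± 0.06, edgeR adjusted p = 0.304).

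CDC39 (YCR093W, chrIII:280117-286443, plus strand), the scaffold gene, rose in wild type on both flowcells. It was at 263, 263, 241 and 214 CPM with vehicle and 379, 357, 348 and 330 with AZC on flowcell 1, where it rose 1.43-fold (log2 0.51 ± 0.08, edgeR adjusted p = 2.99e-05). On flowcell 2 the values were 244, 237, 208 and 220.5 with vehicle and 309, 298, 319 and 275 with AZC. Every AZC library again lay above every vehicle library, and the rise was 1.29-fold (log2 0.36 ± 0.06, edgeR adjusted p = 6.44e-05).

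Within the NOT module, NOT3 (YIL038C, chrIX:280142-282652, minus strand) went the other way. On flowcell 1 it was at 201, 209, 191 and 178 CPM with vehicle and at 141, 139, 139 and 139.7 with AZC. The vehicle libraries were all higher, and those with AZC were within 2 CPM of each other. NOT3 fell by 0.50 ± 0.06 on the log2 scale, a level 1.41-fold lower (edgeR adjusted p = 1.23e-06). On flowcell 2 it was at 191, 178, 179 and 177 with vehicle and 145, 149, 139 and 147 with AZC. The groups again did not overlap, and NOT3 fell by 0.36 ± 0.06 on the log2 scale (edgeR adjusted p = 4.79e-05). NOT5 (YPR072W, chrXVI:690107-691789, plus strand), whose product resembles that of NOT3 at its start, differed by 0.07 ± 0.06 on flowcell 1 and 0.09 ± 0.05 on flowcell 2 and was called on neither. On flowcell 2 its libraries did not overlap, at 199 to 210 CPM with vehicle and 215 to 231 with AZC. There 2 of 18 alternatives called NOT5 higher, DESeq2 (adjusted p = 0.0494) and edgeR without ribosomal RNA records (adjusted p = 0.0283). CDC36 (YDL165W, chrIV:164290-164865, plus strand) was at -0.11 ± 0.08 and -0.15 ± 0.06, with edgeR adjusted p values of 0.215 and 0.05002, the second just outside the threshold. On flowcell 2, 5 of 18 alternatives called CDC36 lower (edgeR adjusted p 0.0131 to 0.0426). These were library totals, both kinds of replicate block, and leaving out vehicle replicate 1 or 2.

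MOT2 (YER068W, chrV:293050-294813, plus strand), the ubiquitin ligase gene, was at 97.9, 101, 113 and 110.2 CPM with vehicle and 127, 128, 140.2 and 131 with AZC on flowcell 1. The groups did not overlap and MOT2 rose 1.23-fold (log2 0.30 ± 0.07, edgeR adjusted p = 0.00161). On flowcell 2 its ranges overlapped, and the log2 difference of 0.14 ± 0.07 was not called (edgeR adjusted p = 0.0899). The call on flowcell 2 depended on the fit, and 6 of 18 alternatives made it. It was made without vehicle replicate 1, the highest of its group at 108 CPM (edgeR adjusted p = 0.0371). Leaving out ribosomal RNA records (0.033) or setting libraries of equal number as a block (0.0187, or 0.0164 within each genotype) also gave it. So did a fit of all 32 libraries (0.0302) or of the compared groups alone (0.02135).

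CAF40 (YNL288W, chrXIV:90303-91424, plus strand) was at 68.7, 83.4, 77.4 and 83.7 CPM with vehicle and 109, 106, 117 and 112 with AZC on flowcell 1. On flowcell 2 it was at 73.4, 69.3, 80.1 and 75.8 with vehicle and 107, 94.3, 109.9 and 105 with AZC. Each AZC library exceeded each vehicle library of its flowcell, by 1.4-fold on flowcell 1 (log2 0.48 ± 0.08, edgeR adjusted p = 3.5e-05) and 1.36-fold on flowcell 2 (log2 0.44 ± 0.06, edgeR adjusted p = 4.15e-06). CAF130 (YGR134W, chrVII:757770-761138, plus strand) did not pass the test on either flowcell, at 0.08 ± 0.07 and 0.05 ± 0.06.

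The wild-type responses of the 2 flowcells come from separate libraries, and their difference was tested in a fit of all 32. None of the 9 genes was called by edgeR or by DESeq2, 0 of 9 had an unadjusted p under 0.05, and 1.78% of all genes were called, a count of 104 that ran from 32 to 418 with 1 library left out. The difference was widest for NOT3 (0.16 ± 0.08, 95% interval -0.01 to 0.33) and MOT2 (-0.14 ± 0.10, -0.34 to 0.07).

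Stretches of 30 bases upstream of the start codons are shown because 3 of the 9 promoters hold the heat shock element core, the motif read by the activator Hsf1, and because CDC39 and NOT3 hold it but moved in opposite directions. The motif is GAANNTTC, which reads the same on both strands, and it is in capitals. Sequences run 5′ to 3′ on the gene's strand, from the R64 genome.
CDC39 (chromosome III, plus strand, chrIII:279918-279947): tatttatcattGAAAATTCacgtgatcgca
NOT3 (chromosome IX, minus strand, chrIX:282788-282817): gttgatatttcGAACTTTCttttgttcatc
NOT3 (chromosome IX, minus strand, chrIX:282664-282693): tttagatttttGAAGATTCattgtatgttt
CCR4 (chromosome I, minus strand, chrI:113424-113453): tccaccttagaGAAGGTTCtcaagcacaag
The matches lie 188 to 181 bases before the start codon in CDC39, 154 to 147 and 30 to 23 in NOT3, and 83 to 76 in CCR4. Within 500 bases upstream, the motif occurs in 19.2% of 5959 promoters. The stress response element AGGGG, read by Msn2 and Msn4, was searched on both strands and occurs in 34.1% of promoters and in CDC39 and CAF130 of the members.
CDC39 (chromosome III, plus strand, chrIII:280025-280054): gaataagataaacAGGGGcaaaggtgagtc
That match lies 79 to 75 bases before the CDC39 start codon. The Rpn4 site GGTGGCAAA, in 1.64% of promoters, was in none of the 9. The letters GATGAG, common upstream of ribosome biogenesis genes, occur in 28.1% of promoters and in those of CCR4 and CDC36. CAF40, which rose with AZC on both flowcells, holds none of the 4 motifs in this window. These are matches of letters and not measured binding sites.

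In the mutants none of these responses was called. AZC in zuo1 gave 0 of 9 genes called by edgeR and 0 by DESeq2, with 0 at an unadjusted p under 0.05, where 2.77% of all genes were called. The log2 differences lay between -0.05 and 0.09. CDC39 was at 195, 188, 170.3 and 184 CPM in zuo1 with vehicle and 199.7, 166, 202 and 204 with AZC. NOT3 was at 133, 139, 148 and 135 with vehicle and 146, 130.2, 145 and 142 with AZC. CAF40 was at 53.4, 53.4, 65.6 and 50.5 with vehicle and 58.4, 55.3, 60.9 and 57.9 with AZC. The ranges of these 3 genes with and without AZC overlapped, and 7.0% of all genes had ranges that did not.

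AZC in not5 gave 0 of 8 genes called by edgeR and 0 by DESeq2, with 0 at an unadjusted p under 0.05. The background was also 0% by edgeR, with 62 of 5849 genes at an unadjusted p under 0.05 and 1 gene called by DESeq2. Libraries of equal number varied together in not5, and with that number as a block within each genotype 76 genes were called, none of them among the 8. CDC39 was at 162, 155, 153 and 154 CPM in not5 with vehicle and 159, 155, 152 and 164 with AZC. NOT3 was at 153, 136, 141 and 141 with vehicle and 151, 125, 141 and 134 with AZC. CAF40 was at 61.1, 63.4, 66.1 and 60.6 with vehicle and 64.2, 63.9, 61.4 and 62.5 with AZC. The ranges of these 3 genes overlapped, and 0.84% of all genes had ranges that did not. The log2 differences of the 8 lay between -0.08 and 0.03.

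The differences between these responses were tested as interactions. The zuo1 response minus that of wild type was called for 3 of 9 genes, against 50.1% of all genes. It was -0.45 ± 0.12 for CDC39 (edgeR adjusted p = 0.0039), -0.43 ± 0.11 for CAF40 (edgeR adjusted p = 0.00434) and 0.52 ± 0.09 for NOT3 (edgeR adjusted p = 8.01e-05). The not5 response minus that of its own wild type was called for 3 of 8 genes, against 49.2% of all genes. It was -0.34 ± 0.08 for CDC39 (edgeR adjusted p = 0.00327), -0.43 ± 0.08 for CAF40 (edgeR adjusted p = 0.000322) and 0.32 ± 0.08 for NOT3 (edgeR adjusted p = 0.00452). So for the scaffold gene, CAF40 and NOT3, the response in each mutant was smaller than in wild type by a tested amount. For the others the difference did not pass the test, with MOT2 at -0.21 ± 0.10 in zuo1 and -0.16 ± 0.10 in not5. For not5 the replicate block by genotype called 5 of 8, adding MOT2 (edgeR adjusted p = 0.0483) and CDC36 (0.18, edgeR adjusted p = 0.0373). The numbers pair the not5 libraries, but this block also pairs the wild-type libraries of flowcell 2, which did not count as paired.

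**Figure D2:**
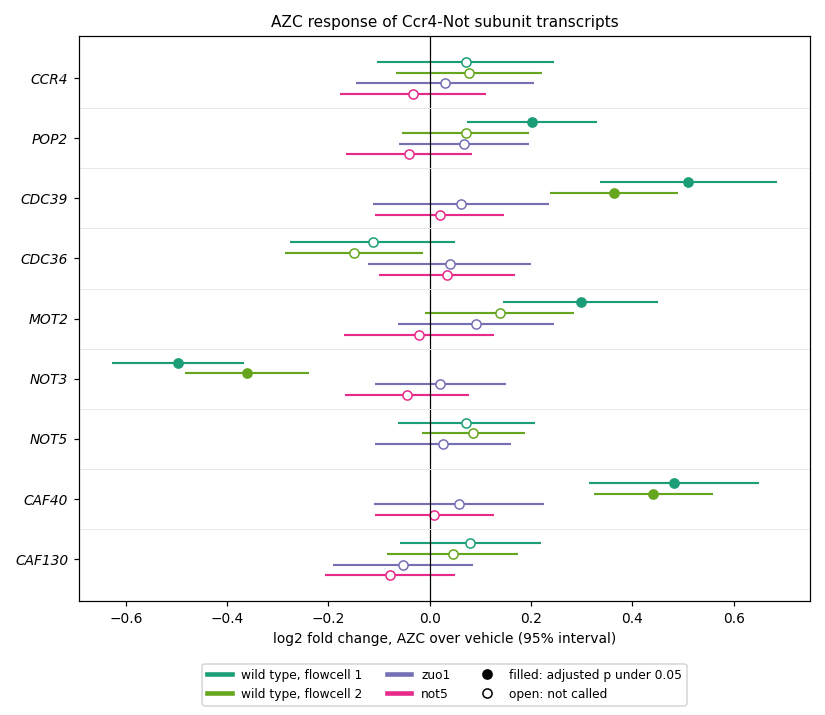
Log2 fold change of AZC over vehicle for each Ccr4-Not gene (horizontal axis, with 95% intervals) in wild type of both flowcells, zuo1 and not5. Filled points have an edgeR adjusted p under 0.05. CDC39 and CAF40 lie above 0 and NOT3 below 0 in wild type of both flowcells, and no point of zuo1 or not5 is filled.

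The comparison of not5 with wild type in vehicle asks what the other 8 transcripts do when NOT5 mRNA is missing. NOT5 fell from 210, 202, 199 and 209 CPM in wild type to 0 in every not5 library, at least 19513-fold against a floor of 3 counts over the group. All 8 other genes were called, against 82.1% of 5849 genes. CCR4, MOT2, CDC39, NOT3 and CAF40 were lower and CDC36, POP2 and CAF130 higher. The median log2 difference of the 8 was -0.33, beside 0.00 for all genes. Scaling by library totals in place of TMM put the median of all genes at 0.53, so differences against zero depend on the scaling. Against zero under library totals, NOT3 (0.15) and CAF40 (0.25) were no longer lower and CDC39 was not called (-0.06, edgeR adjusted p = 0.565).

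CCR4 differed most of the 8. It was at 117, 104, 115 and 108 CPM in wild type and 49.9, 42.3, 45.4 and 45.7 in not5. The lowest wild-type library was above the highest not5 library by a factor of more than 2, and the level was 2.47-fold lower (log2 -1.30 ± 0.07, edgeR adjusted p = 7.2e-11). POP2, the gene of the other deadenylase, was at 123, 111, 130.2 and 125 in wild type and 171, 165, 159 and 174 in not5. It was higher in every not5 library, by 1.34-fold (log2 0.42 ± 0.06, edgeR adjusted p = 6.19e-06).

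MOT2 was at 108, 96.6, 96.1 and 96.2 CPM in wild type and 61.7, 52.7, 59.3 and 55.1 in not5. The groups were well apart, with a level 1.77-fold lower in not5 (log2 -0.83 ± 0.07, edgeR adjusted p = 1.61e-08). CDC39 was lower 1.49-fold (log2 -0.58 ± 0.06, edgeR adjusted p = 1.93e-07), from the wild-type values above to 153 to 162 CPM. In the NOT module CDC36 was at 41.5, 39.6, 50.4 and 44.2 in wild type and 63.6, 58.9, 58.8 and 64.9 in not5. All not5 libraries were higher, by 1.37-fold (log2 0.45 ± 0.06, edgeR adjusted p = 5.9e-06). NOT3 (log2 -0.38 ± 0.06), CAF40 (-0.28 ± 0.06) and CAF130 (0.18 ± 0.06) differed less, with edgeR adjusted p values of 1.46e-05, 0.000196 and 0.0137. For all 8 genes the wild-type and not5 libraries did not overlap in vehicle, beside 76.7% of all genes. The signs of NOT3 and CAF40 turn, however, under library totals, as given above.

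With AZC, 6 of the 8 genes were called between not5 and wild type, against 79.3% of all genes. Libraries of the 2 genotypes did not overlap for 6 of the 8, beside 73.1% of all genes. CCR4 was lower by 2.66-fold (log2 -1.41 ± 0.07, edgeR adjusted p = 2.99e-11) and CDC36 higher by 1.56-fold (0.64 ± 0.06, edgeR adjusted p = 1.33e-07). MOT2 was at -0.99 ± 0.07, CDC39 at -0.92 ± 0.06, CAF40 at -0.71 ± 0.06 and POP2 at 0.31 ± 0.06, all called. NOT3 was at -0.06 ± 0.06 and CAF130 at 0.05 ± 0.06, and their groups overlapped. Under library totals the median of all genes was 0.55 here, and NOT3 (0.47, edgeR adjusted p = 8.04e-05) and CAF130 (0.59, 6.03e-06) were called higher.

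The comparison of zuo1 with wild type in vehicle called all 9 genes, against 59.3% of 5782 genes, with 7 lower and 2 higher. For all 9 the libraries of the 2 genotypes did not overlap, beside 53.4% of all genes. The median log2 difference of the 9 was -0.47, beside 0.01 over all genes. CCR4 was at 69.3, 71.5, 86.4 and 72.2 CPM in zuo1 and POP2 at 94.4, 82.4, 91.4 and 81.2. Both lay below every wild-type library given above, and each was 1.41-fold lower (log2 -0.49 ± 0.08 and -0.49 ± 0.06, edgeR adjusted p = 7.96e-05 and 3.47e-06). NOT5 mRNA, intact in zuo1, was at 163, 173, 172 and 160 CPM beside 209.6, 230.3, 218 and 198 in wild type. Its groups did not overlap, and it was 1.27-fold lower (log2 -0.35 ± 0.06, edgeR adjusted p = 0.000175).

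NOT3 (-0.49 ± 0.06), CAF40 (-0.48 ± 0.08), MOT2 (-0.47 ± 0.07) and CDC39 (-0.40 ± 0.08) were lower in zuo1 by 1.32- to 1.4-fold, with edgeR adjusted p values of 4.06e-06 to 0.000458. CDC36 was at 40.4, 39.8, 37.9 and 42.0 CPM in wild type and 44.7, 51.0, 49.4 and 50.6 in zuo1. It was higher in every zuo1 library, by 1.23-fold (log2 0.30 ± 0.08, edgeR adjusted p = 0.00305). CAF130 was higher by 0.18 ± 0.07 (edgeR adjusted p = 0.028), a call that was lost without wild-type replicate 4 (0.102) or without zuo1 replicate 1 (0.115), 2 (0.138), 3 (0.0775) or 4 (0.0541). DESeq2 did not call it either (adjusted p = 0.0572) and so called 8 of the 9 genes. The call was also lost in edgeR with DESeq2 size factors (edgeR adjusted p = 0.0641). With the replicate number as a block all 9 genes were called. The vehicle libraries of wild type and zuo1 count as paired, but this block also pairs the AZC libraries of flowcell 1, which did not. Library totals put the median of all genes at 0.25, and under them CDC39 (-0.16) and NOT5 (-0.10) were not called.

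With AZC, 7 of the 9 genes were called between zuo1 and wild type, against 69.3% of all genes. CAF40 (-0.91 ± 0.08), CDC39 (-0.85 ± 0.08), MOT2 (-0.68 ± 0.07), POP2 (-0.63 ± 0.06), CCR4 (-0.53 ± 0.08) and NOT5 (-0.39 ± 0.06) were lower and CDC36 was higher (0.45 ± 0.08). NOT3 stood at 0.03 ± 0.06 and CAF130 at 0.04 ± 0.07. The NOT3 level was 141, 139, 139 and 139.7 CPM in wild type with AZC, inside the zuo1 range of 130.2 to 146. Library totals put the median of all genes at 0.17, and under them NOT3 and CAF130 were called higher. Comparisons within a flowcell share libraries. The wild-type vehicle libraries, for instance, enter the AZC response of wild type and the mutant difference in vehicle, so their values are set side by side and no likeness between them is drawn.

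**Figure D3:**
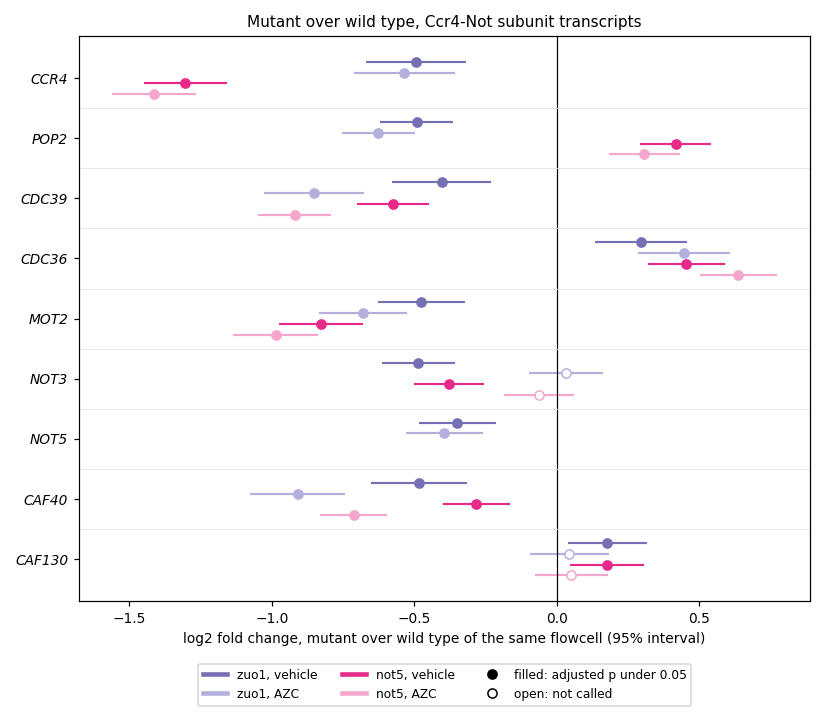
Log2 fold change of zuo1 and not5 over wild type of the same flowcell (horizontal axis, with 95% intervals), in vehicle and with AZC. Filled points have an edgeR adjusted p under 0.05, and NOT5 is shown for zuo1 only. CCR4 lies near -1.30 in not5 and -0.49 in zuo1, and POP2 is above 0 in not5 and below 0 in zuo1. Values are after TMM scaling; under library totals NOT3 (0.15) and CAF40 (0.25) lie above 0 in not5 with vehicle, and NOT3 (0.47) in not5 with AZC.

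Whether the vehicle effects of the 2 mutants differ was tested in the fit of all 32 libraries, each mutant against its own wild type. Of the 8 genes, 4 were called, against 69.7% of 5854 genes. POP2 was the widest apart, with the not5 effect 0.95 ± 0.08 above that of zuo1 on the log2 scale (edgeR adjusted p = 6.71e-11). CCR4 was lower in not5 by a further -0.77 ± 0.11 (edgeR adjusted p = 4.18e-07) and MOT2 by -0.31 ± 0.10 (edgeR adjusted p = 0.00699). CAF40 differed by 0.24 ± 0.10 (edgeR adjusted p = 0.0296), a call lost when any 1 of 7 libraries was left out (edgeR adjusted p 0.0572 to 0.0706). On flowcell 1 these were wild-type vehicle replicates 2 and 4 and zuo1 vehicle replicates 1, 2 and 4. On flowcell 2 they were wild-type vehicle replicate 2 and not5 vehicle replicate 3. A fit of the compared groups alone also lost the CAF40 call (edgeR adjusted p = 0.0686). CDC39, CDC36, NOT3 and CAF130 were not called, with differences of -0.13 ± 0.10, 0.20 ± 0.10, 0.15 ± 0.08 and 0.04 ± 0.09. CDC36 was called with the replicate block (edgeR adjusted p = 0.0449) and without wild-type vehicle replicate 3 of flowcell 2 (0.0114). Without both wild-type libraries numbered 3 of flowcell 2 it was called too (0.0132). NOT3 was called without wild-type vehicle replicate 4 of flowcell 1 (edgeR adjusted p = 0.0403). Library totals put the median of all genes at 0.25. Under them the call of MOT2 was lost (-0.07, edgeR adjusted p = 0.624) and CDC36 (0.44, 0.000259), NOT3 (0.39, 0.00324) and CAF130 (0.28, 0.0381) were called.

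Ratios of 2 transcripts within a library do not depend on its scaling. The 3 ratios given here were chosen after the values were seen and carry no test. POP2 over CCR4 per kilobase was 2.03, 2.06, 2.19 and 2.25 in wild type with vehicle on flowcell 2. In not5 with vehicle it was 6.6, 7.5, 6.76 and 7.36. The balance of the deadenylase transcripts was thus shifted to POP2 in each not5 library, and in zuo1 with vehicle it averaged 2.27 ± 0.254, beside 2.26 ± 0.157 in the wild type of that flowcell (SD, n = 4).

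NOT3 over NOT5 per kilobase was 0.642, 0.608, 0.590 and 0.602 in wild type with vehicle on flowcell 1 and 0.397, 0.390, 0.412 and 0.451 with AZC. On flowcell 2 it was 0.592 ± 0.0177 with vehicle and 0.435 ± 0.0241 with AZC. The groups with and without AZC did not overlap on either flowcell, while in zuo1 the ratio was 0.555 ± 0.0188 and 0.553 ± 0.0122. CDC36 over CDC39 per kilobase went from 1.81 ± 0.236 to 1.17 ± 0.0784 with AZC in wild type of flowcell 1 and from 2.14 ± 0.384 to 1.49 ± 0.0921 on flowcell 2. It was 2.93 ± 0.287 in zuo1 and 4.33 ± 0.201 in not5 with vehicle, and 2.90 ± 0.521 and 4.38 ± 0.123 with AZC.

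**Figure D4:**
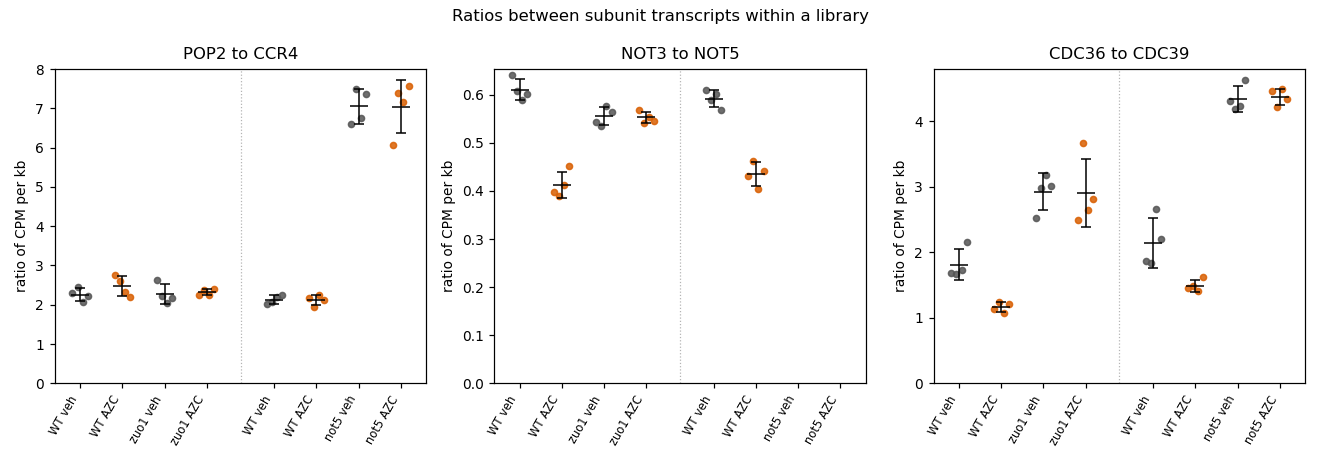
Ratios of transcript levels per kilobase in each library, for POP2 over CCR4, NOT3 over NOT5 and CDC36 over CDC39, by group, on linear axes from 0. Points are libraries and bars are means with SD (n = 4), and NOT3 over NOT5 is empty in not5, where NOT5 is at 0. POP2 over CCR4 is near 7.06 in not5 with vehicle and near 2.13 in its wild type.

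Genes whose products work with Ccr4-Not were read from the same fits in 4 lists. The first holds 11 genes of deadenylation and decapping. With AZC in wild type of flowcell 1, 5 rose and 4 fell, beside 64.6% of all genes called. PAN3, a subunit of the other poly(A) nuclease, rose (log2 0.72 ± 0.07, edgeR adjusted p = 6.36e-08), as did the 5′ exonuclease gene XRN1 (0.49 ± 0.08, edgeR adjusted p = 1.63e-05), and the decapping subunit gene DCP1 fell (-0.51 ± 0.13, edgeR adjusted p = 0.00174). On flowcell 2, 3 rose and 4 fell, beside 65.3% of all genes, with PAN3 at 0.59 ± 0.05, XRN1 at 0.48 ± 0.06 and DCP1 at -0.55 ± 0.08. In zuo1 and in not5 AZC gave 0 calls of 11, beside 2.77% and 0% of all genes.

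In not5 over wild type with vehicle, 7 of these 11 genes were lower and 2 higher, a share called near the 82.1% of all genes, with PAB1, the poly(A)-binding protein gene, at -1.75 ± 0.10 (edgeR adjusted p = 1.34e-10). PAN2, the catalytic partner of PAN3, was at -1.42 ± 0.09 and the decapping activator gene PAT1 at -1.26 ± 0.06. In zuo1, 7 were lower and 1 higher, beside 59.3% of all genes called, led by PAB1 (-0.73 ± 0.09), SCD6 (-0.67 ± 0.08) and the helicase gene DHH1 (-0.62 ± 0.07). These counts depend on the scaling: under library totals 6 were lower and 5 higher in not5, and 4 lower and 3 higher in zuo1.

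The second list holds 8 genes of RNA-binding proteins that recruit deadenylases. With AZC in wild type 4 rose and 2 fell on flowcell 1, and 3 rose and 2 fell on flowcell 2, shares called near the 64.6% and 65.3% of all genes. The Pumilio-family gene JSN1 rose (1.55 ± 0.09 and 1.12 ± 0.07), as did CTH1 of the tristetraprolin type (1.45 ± 0.08 and 1.46 ± 0.08), and VTS1, the yeast relative of Smaug, fell (-1.26 ± 0.06 and -1.21 ± 0.13). With AZC in zuo1 1 of 8 was called, CTH1 at 0.97 ± 0.08, and in not5 0 of 8, beside 2.77% and 0% of all genes. In vehicle, 3 were higher and 2 lower in not5, beside 82.1% of all genes called, with TIS11 at 1.26 ± 0.36, VTS1 at -1.14 ± 0.13 and CTH1 at 1.05 ± 0.08. In zuo1 5 were lower and 0 higher, beside 59.3% of all genes called, with TIS11 at -1.32 ± 0.49, VTS1 at -0.56 ± 0.06 and PUF4 at -0.42 ± 0.06. TIS11 varied widely between wild-type vehicle libraries, at 10.3 to 41.5 CPM on flowcell 1 and 5.00 to 12.1 on flowcell 2. In vehicle it was at 7.76 to 16.2 CPM in zuo1 and 18.1 to 19.5 in not5. Its opposite signs are each against a wild type of a different level. Under library totals the counts in vehicle became 6 higher and 2 lower in not5, and 1 higher and 2 lower in zuo1.

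The third list holds 9 ubiquitin partners and substrates of MOT2, and all 9 were called with AZC in wild type on each flowcell, 3 higher and 6 lower, beside 64.6% and 65.3% of all genes. UBC4 and UBC5, which encode the ubiquitin-conjugating enzymes that serve MOT2, rose by 2.06 ± 0.11 and 1.70 ± 0.11 on flowcell 1 and 1.59 ± 0.09 and 1.37 ± 0.11 on flowcell 2. OTU2, a deubiquitinase gene, fell (-1.23 ± 0.10 and -0.9997 ± 0.09). UBC4 was the only gene of the list called with AZC in zuo1 (1.11 ± 0.11), beside 2.77% of all genes. In not5 0 were called, beside 0% of all genes. In not5 with vehicle 6 were lower and 2 higher, beside 82.1% of all genes called, with UBC5 at 2.97 ± 0.11, RPS7A, whose protein MOT2 marks on ribosomes, at -1.74 ± 0.14 and EGD1, a subunit gene of the nascent polypeptide-associated complex, at -1.67 ± 0.07. In zuo1 4 were lower and 0 higher, beside 59.3% of all genes called, with RPS7B at -1.08 ± 0.11, HEL2 at -0.55 ± 0.06 and UBP3 at -0.48 ± 0.07. Under library totals the counts were 5 lower and 3 higher in not5 and 3 lower and 3 higher in zuo1. UBC4 and UBC5, and RPS7A and RPS7B, are close copies whose shared reads are divided by estimation.

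The fourth list holds the genes of 4 proteins found with the complex. With AZC in wild type 3 of 4 were called on flowcell 1 and 2 of 4 on flowcell 2, beside the 64.6% and 65.3% of all genes. In wild type with AZC the kinase gene DBF2 rose (0.54 ± 0.07 on flowcell 1 and 0.52 ± 0.13 on flowcell 2) and CAF120 fell (-0.50 ± 0.11 and -0.32 ± 0.08), and CAF16 rose on flowcell 1 (0.29 ± 0.10). With AZC 0 of 4 were called in zuo1 and in not5, beside 2.77% and 0% of all genes. In vehicle 1 of 4 was called in zuo1, beside 59.3% of all genes, with CAF16 higher (0.51 ± 0.10). In not5 2 of 4 were called, beside 82.1%, with DBF2 (1.01 ± 0.13) and CAF16 (0.51 ± 0.07) higher. Under library totals 4 of 4 were higher in not5 and 2 of 4 in zuo1.

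The genes most alike to each member across the libraries were named by Pearson's r of log2 CPM, each value centred on its flowcell mean, among 5772 genes over 32 libraries and, for NOT5, over the 24 that carry it. The libraries share groups, flowcells and scaling, so r mostly ranks genes by their group means. CCR4 was nearest to the tubulin gene TUB2 (0.988), MOT2 to PMT3 (0.985), CDC39 to ECM30 (0.978), CAF40 to CPR4 (0.974), NOT5 to the exportin gene CRM1 (0.973), CDC36 to SAP30 (0.958), POP2 to DEF1 (0.951), NOT3 to ILV5 (0.949) and CAF130 to CDC25 (0.803). None of the 9 had another member as its nearest gene. Among the members the highest r was 0.956, between CCR4 and MOT2, and the lowest was -0.925, between CDC36 and MOT2.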

How the data were processed

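The authors deposited 1 table of estimated counts (expected counts) per gene for 32 libraries, made with Salmon 1.10.2 on R64 after FastQC 0.12.1, per the submitters' processing notes. The kit named in the labels' protocols does not mark strand, no member overlaps another annotated gene, and the reads carry no molecular identifiers in the table. All were rounded for the tests, since 79.1% had decimals. The 1 unmatched record, at most 0.0179% of a library, was left out. Tests used edgeR 4.0.16 in R 4.3.3 (quasi-likelihood, robust, TMM, filterByExpr by group), on the 16 libraries of 1 flowcell with group as the only term, or on all 32 for differences between flowcells, with Benjamini-Hochberg adjustment over all genes at 0.05. The fit was tested on simulated counts. CPM comes from these counts with TMM factors, errors are SE for log2 values and SD for levels. Alternatives were DESeq2 1.42.0, its size factors, library totals, no filter, other libraries in the fit, no ribosomal RNA records, replicate blocks and leaving out libraries.

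The members and lists were chosen with earlier results of these data known. All 9 members are named, with up to 3 called genes per list and comparison, those of largest log2 change, and the nearest gene by r. Promoter windows and motifs were chosen after the counts had arrived. Libraries within a group differed by far more than sampling noise (chi-square over degrees of freedom 22.8 to 1225). The numbers in the labels were checked for pairing by the correlation of deviations from group means. All 4 same-numbered pairs exceeded 0.1 for not5 with and without AZC (0.189 to 0.815) and for vehicle libraries of wild type and zuo1 (0.126 to 0.276), so there the samples count as paired, and in the other 6 group pairs they did not. Pairs of unequal number ran from -0.718 to 0.305 in not5 and from -0.163 to 0.099 in those vehicle libraries. Of the 4 not5 vehicle libraries, 3 correlated best with the AZC library of their own number. Intervals and floors cover counting error or the spread between these libraries only. Coordinates are R64, 1-based. Sequences come from the RefSeq genome of that build, read upstream of annotated start codons.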

Additional observations from a re-analysis of the deposited data

Results flagged for a closer look

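Of 70 sets of 4 libraries, 4 had a value far from the other 3 by Dixon's criterion, which chance gives in about 1 of 20. CCR4 was at 51.0 CPM in not5 with AZC replicate 1, beside 42.1 to 43.1 in the others. CDC39 was at 166 CPM in zuo1 with AZC replicate 2, beside 199.7 to 204. MOT2 and NOT3 were highest in wild type with vehicle replicate 1 of flowcell 2, at 107.9 beside 96.1 to 96.6 CPM and at 190.8 beside 177 to 178.6 CPM. No cause was tested.

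Responses that differed between genotypes by a tested amount are the second set. The AZC response of zuo1 minus that of wild type (edgeR, log2) was -0.45 for CDC39, -0.43 for CAF40 and 0.52 for NOT3, and that of not5 minus wild type was -0.34 for CDC39, -0.43 for CAF40 and 0.32 for NOT3. The vehicle effect of not5 minus that of zuo1 was 0.95 for POP2, -0.77 for CCR4, -0.31 for MOT2 and 0.24 for CAF40. The mutants also differ in flowcell, and not5 in LEU2, and the part of these in the differences cannot be told apart.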

How the results depend on the processing

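Of the 103 member fold changes, 3 changed sign where either value was called, all under library totals: NOT3 (0.15) and CAF40 (0.25) in not5 over wild type with vehicle, and NOT3 (0.47) with AZC. Library totals put the median of all genes at 0.17 to 0.55 between mutant and wild type, and calls of all genes moved with it. The share of called genes that were higher went from 50.2% to 76.2% in not5 with vehicle and 51.3% to 80.3% with AZC. It went from 50.9% to 78.6% in zuo1 with vehicle and 49.0% to 63.9% with AZC. For AZC in zuo1 it went from 81.3% to 70%. It went from 51.1% to 66.2% for not5 minus zuo1, and 50% to 31.4% for the wild-type responses of the 2 flowcells. Members called with AZC in wild type of flowcell 2 were 3, and 5 without ribosomal RNA records, 5 with a replicate block and 5 with a replicate block by genotype, and 3 to 5 with 1 library left out (5 without wild-type vehicle replicate 1). The not5 interaction called 3 members, 5 with the block by genotype, and 3 to 4 with 1 library left out. The vehicle effect of not5 minus that of zuo1 called 4 members, and 3 to 5 with 1 library left out. Genes called with AZC in not5 were 0, 1 by DESeq2 and 76 with the block by genotype, and in zuo1 160, then 280 with the replicate block and 308 by genotype, and 107 to 215 with 1 library left out. For the wild-type responses of the flowcells they were 104, then 205 by DESeq2, 340 with the replicate block, 204 without the wild-type libraries numbered 3 of flowcell 2 (chosen after seeing the data) and 32 to 418 with 1 library left out (418 without AZC replicate 4 of flowcell 1, 235 without AZC replicate 3 of flowcell 2 and 32 to 63 for 12 others), with 0 members called in each. The causes were not tested. Without both not5 libraries numbered 4, highest in ribosomal RNA and chosen after seeing the data, the members called were 8, 6, 3 and 0 for not5 in vehicle, not5 with AZC, the interaction and AZC in not5, as with them. The AZC interactions of zuo1 and of not5 have no fit of the compared groups alone, since all 4 groups of their flowcell enter them. With 4 libraries per group, standard errors of 0.05 to 0.12 limit what a log2 difference near 0.2 can show.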

Other observations

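NOT5 lies on chromosome XVI at 690107 to 691789 on the plus strand (R64), between YPR071W, 1300 bp to its left, and LTP1, 144 bp to its right. In not5 over wild type with vehicle YPR071W was lower (log2 -0.65 ± 0.06, edgeR adjusted p = 4.21e-08), with group means of 16.6 and 25.5 CPM. LTP1 differed by -0.16 ± 0.06 (edgeR adjusted p = 0.0207), with 36.1 and 39.5 CPM. In this comparison 82.1% of all genes were called. These values are after TMM scaling, and library totals put the median of all genes at 0.53. Under TMM scaling in zuo1, where NOT5 is intact, YPR071W and LTP1 were higher by 0.40 ± 0.08 and 0.75 ± 0.18. No cause was tested.

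The coding sequences differ in proline codons, the codons at which AZC enters. They make up 6.98% of codons in MOT2 (41 of 587), 6.28% in CDC36, 6.24% in POP2, 5.71% in NOT5, 5.63% in CAF40, 5.5% in CCR4, 4.9% in NOT3, 4.13% in CDC39 and 3.48% in CAF130, beside a median of 4.17% over 5961 coding genes. Translated, NOT3 and NOT5 align over 332 residues from their first residues on with 36.1% identity, the highest-scoring local alignment of the 36 pairs of members. Stretches of 31 bases from POP2 (1272 in all) match at 21 positions in other coding sequences. Those of CCR4 (2484) match at 2 and those of the other 7 members at none, so few reads could be divided with other genes.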
